A study of Mus musculus with 6 samples.

Results

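The 45 genes described here encode proteins with which a cell enters mitosis, separates its chromosomes and divides its cytoplasm. They were listed by name, with no cut-off on a measured value but with earlier results of these data known, and all 45 were found by Ensembl identifier among the 20121 genes of the deposited count tables. Each was placed in 1 of 7 roles: 10 kinases, cyclins and regulators of mitotic entry, 4 genes of chromosome structure, 8 of the spindle, 9 of the kinetochore and its checkpoint, 2 of the anaphase-promoting complex pathway, 4 of the chromosomal passenger complex and 8 of cytokinesis. The samples were hearts taken whole at postnatal day 14 from mice of a mixed background (ICR; C57BL/6). Every pup carried TRalphaAMI, a knock-in allele that, once acted on by Cre recombinase, makes a mutant thyroid hormone receptor alpha with dominant negative action. The 3 control pups had this allele but no Cre, and so nothing to switch it on. The 3 mutant pups were their littermates and carried Myh6-Cre in addition, whose promoter drives Cre in heart muscle cells. No heart carried Myh6-Cre alone, so an effect of Cre cannot be told apart from that of the receptor.

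In mitosis, cyclin-dependent kinase and its cyclins condense the chromosomes and break down the nuclear envelope, microtubules attach to kinetochores, and a checkpoint holds the cell until the attachments are complete. The anaphase-promoting complex then starts chromosome separation, and a ring of actin and myosin, placed by the central spindle, splits the cell in cytokinesis. Mouse heart muscle cells largely leave the cell cycle in the weeks after birth, and many complete a last mitosis without cytokinesis and keep more than 1 nucleus. Thyroid hormone, which rises over the same period, is one of the signals studied in that exit. The comparison of mutant with control hearts asks how transcripts of these genes differ when the receptor's action is blocked in heart muscle cells, and whether genes of cytokinesis differ as genes of early mitosis do.

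Transcripts of 43 of the 45 genes rose in the mutant hearts, none fell, and Cenpf and Cit did not pass the test. All 45 had enough counts to be tested among 14877 genes with edgeR's quasi-likelihood test, with calls at a Benjamini-Hochberg adjusted p under 0.05. At an unadjusted p under 0.05, and by DESeq2, the count that fell was also 0. Of all genes tested, 18.1% were called higher by this rule and 19.5% were called lower. The median log2 fold change of the 45 genes, mutant over control, was 1.50, against -0.00 over all genes tested, and single genes ranged from -0.02 to 2.63. The increase was at least 2-fold in 35 of the 45 genes, where 4.48% of all genes tested were called at that size. It was at least 3-fold in 21 and at least 4-fold in 6, which were Hmmr, Bub1, Melk, Ccnb1, Ube2c and Cdca3. Of all 14877 genes tested, 272 were called at least 3-fold higher and 136 at least 4-fold higher. The lowest mutant heart stood above the highest control heart for 43 genes, an arrangement seen in 24.4% of all genes tested. Because RNA came from whole hearts, more dividing cells and more RNA per dividing cell cannot be told apart, and neither can the cell type in which the transcripts were made.

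Summed over the 45 genes, the level was 107, 105 and 83.3 CPM (edgeR's counts scaled to library size and composition) in the 3 control hearts, and 217, 237 and 189.7 CPM in the 3 mutant hearts. The groups did not overlap, and the ratio of their means was 2.18. Cenpf alone supplied 24.2 CPM of the control mean of 98.5. These are low transcripts: 26 of the 45 genes had under 100 counts in every control library, and the lowest value was 8 counts, for Ccnb1. Among the mutant libraries only 4 genes stayed under 100 counts in all 3.

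**Figure D1:**
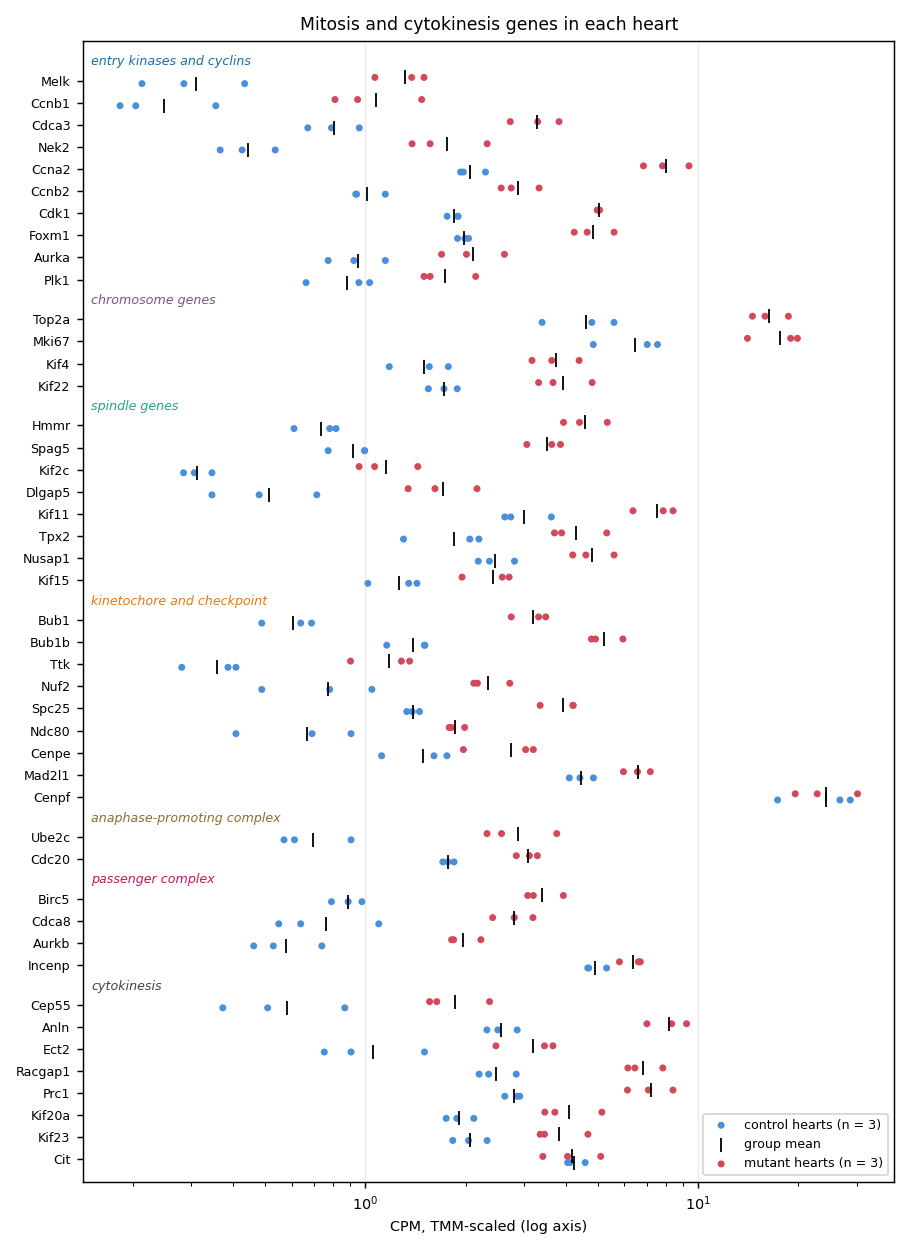
Level of each of the 45 genes in each heart, in CPM on a log axis, grouped by role and ordered by fold change within a role; blue points are control hearts, red points mutant hearts and black ticks group means (n = 3 each). The red points lie to the right of the blue points for 43 genes, and they overlap for Cenpf and Cit.

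The promoters of 38 of the 45 genes were read from RefSeq windows of 250 bases before to 50 bases after a start site, since 2 short elements are textbook features of promoters of the late cell cycle: the cell cycle genes homology region (CHR) and the CCAAT box. The CHR was searched as TTTGAA or TTTAAA and the CCAAT box as CCAAT, on both strands (the second CHR string reads alike on both strands and was counted once; a CHR and a CCAAT match may share end letters). Windows of Aurkb, Ccna2, Dlgap5, Foxm1, Incenp, Kif20a and Tpx2 were not analysed here. The windows printed, 5′ to 3′ along the gene's strand, are those of the gene with the smallest p in each role that has a window, to compare roles, and of the 2 genes not called higher; capitals mark letters of a CHR or a CCAAT box on either strand (GRCm38.p6).
Cdk1 (chr10:69352863-69353162, - strand): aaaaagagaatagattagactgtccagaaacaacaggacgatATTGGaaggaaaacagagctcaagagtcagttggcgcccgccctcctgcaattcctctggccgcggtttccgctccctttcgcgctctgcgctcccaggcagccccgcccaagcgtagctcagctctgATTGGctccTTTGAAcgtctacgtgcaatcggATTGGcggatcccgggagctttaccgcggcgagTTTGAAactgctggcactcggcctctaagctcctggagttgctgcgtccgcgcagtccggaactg
Top2a (chr11:99024140-99024439, - strand): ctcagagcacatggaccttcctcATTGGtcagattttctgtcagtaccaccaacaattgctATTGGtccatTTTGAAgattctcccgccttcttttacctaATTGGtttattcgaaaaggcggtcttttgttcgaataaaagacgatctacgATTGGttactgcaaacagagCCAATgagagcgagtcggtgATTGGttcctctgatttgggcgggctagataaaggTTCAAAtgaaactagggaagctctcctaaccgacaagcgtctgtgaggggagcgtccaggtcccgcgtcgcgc
Hmmr (chr11:40733388-40733687, - strand): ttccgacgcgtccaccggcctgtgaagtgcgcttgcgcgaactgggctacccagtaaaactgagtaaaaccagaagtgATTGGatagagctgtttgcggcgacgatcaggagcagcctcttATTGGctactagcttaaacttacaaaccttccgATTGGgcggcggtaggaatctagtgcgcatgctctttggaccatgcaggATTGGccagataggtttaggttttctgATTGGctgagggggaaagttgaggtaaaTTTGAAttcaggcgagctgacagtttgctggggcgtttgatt
Bub1 (chr2:127831810-127832109, - strand): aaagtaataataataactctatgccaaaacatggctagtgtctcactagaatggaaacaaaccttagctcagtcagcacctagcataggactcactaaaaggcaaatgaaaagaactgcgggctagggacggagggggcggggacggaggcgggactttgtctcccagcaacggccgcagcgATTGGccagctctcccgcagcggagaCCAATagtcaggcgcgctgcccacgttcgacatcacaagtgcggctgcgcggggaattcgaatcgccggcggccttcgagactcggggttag
Ube2c (chr2:164769679-164769978, + strand): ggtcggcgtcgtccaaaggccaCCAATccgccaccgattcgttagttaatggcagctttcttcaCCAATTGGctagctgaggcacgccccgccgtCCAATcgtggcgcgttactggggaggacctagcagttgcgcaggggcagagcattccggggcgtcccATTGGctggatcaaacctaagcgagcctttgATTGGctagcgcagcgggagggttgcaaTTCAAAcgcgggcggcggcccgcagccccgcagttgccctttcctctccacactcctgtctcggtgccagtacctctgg
Birc5 (chr11:117848987-117849286, + strand): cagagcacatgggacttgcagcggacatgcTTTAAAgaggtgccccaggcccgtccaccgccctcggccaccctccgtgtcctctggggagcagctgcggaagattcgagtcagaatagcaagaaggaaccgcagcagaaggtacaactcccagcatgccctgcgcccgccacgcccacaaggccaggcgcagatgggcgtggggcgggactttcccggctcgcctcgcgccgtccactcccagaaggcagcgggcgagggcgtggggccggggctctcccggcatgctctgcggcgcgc
Anln (chr9:22389157-22389456, - strand): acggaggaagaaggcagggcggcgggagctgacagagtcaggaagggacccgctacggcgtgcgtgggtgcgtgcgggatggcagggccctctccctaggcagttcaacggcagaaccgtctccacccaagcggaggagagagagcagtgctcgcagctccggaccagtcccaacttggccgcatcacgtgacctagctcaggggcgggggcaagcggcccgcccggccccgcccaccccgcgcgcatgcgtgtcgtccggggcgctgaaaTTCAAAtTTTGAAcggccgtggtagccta
Cenpf (chr1:189688037-189688336, - strand): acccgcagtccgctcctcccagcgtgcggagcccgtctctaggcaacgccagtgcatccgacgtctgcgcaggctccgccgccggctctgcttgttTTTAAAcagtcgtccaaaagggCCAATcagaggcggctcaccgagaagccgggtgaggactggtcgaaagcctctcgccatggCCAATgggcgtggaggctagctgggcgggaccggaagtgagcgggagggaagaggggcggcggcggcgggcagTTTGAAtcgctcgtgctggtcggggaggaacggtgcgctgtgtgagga
Cit (chr5:115845406-115845705, + strand): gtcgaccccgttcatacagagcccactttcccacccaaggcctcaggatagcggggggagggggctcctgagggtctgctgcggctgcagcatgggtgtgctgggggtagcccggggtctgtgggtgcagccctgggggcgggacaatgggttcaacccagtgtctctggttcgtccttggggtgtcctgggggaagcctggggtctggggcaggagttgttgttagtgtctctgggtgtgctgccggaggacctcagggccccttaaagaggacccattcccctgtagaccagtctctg
A CHR was found in 34 of the 41 windows of the 45 genes (82.9%), against 19.5% of the 14424 windows of tested genes and 27.6% of all 32851 windows. A CCAAT box was found in 29 windows (70.7%), against 37.0% and 37.4%. Both stood in 27 windows (65.9%), against 7.56% of the windows of tested genes. With 1 window a gene, that nearest the 5′ end of the GENCODE M21 gene, 32 of the 45 CHR matches lay within 50 bases of the start, a range chosen after the positions were seen. Over all windows, 31 of the 41 (75.6%) and 5.2% of those of tested genes had a match that close. The 65 CCAAT matches lay at a median of 58 bases before the start, and 20 genes had 2 or more. The half-site AGGTCA, the core of thyroid hormone response elements, was found in 6 of the 41 windows (14.6%), against 12.5% of the windows of tested genes. These shares count letters in a window and do not show that a factor binds.

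Among the windows printed above, those of Hmmr, Ube2c, Top2a and Cdk1 held both elements. Hmmr had 5 CCAAT matches, and Ube2c and Top2a had 6 each. In Ube2c, the stretch CCAATTGG was counted as a match on each strand. Bub1 held CCAAT matches only, and Birc5 and Anln held CHR matches only. Cenpf, which did not differ between the groups past the test, held 2 of each, and Cit held none. The RefSeq start behind the Cit window lies inside the gene as GENCODE M21 places it, so a start further upstream is not covered. The 25 genes with both elements had a median log2 fold change of 1.46, the 6 with a CHR only had 1.69, and the 2 with a CCAAT box only, Bub1 and Nek2, had 2.20. The 5 with neither were Cit, Mad2l1, Melk, Nuf2 and Nusap1, and ranged from -0.02 to 2.12, with a median of 0.98, the lowest of the 4 classes. Melk, at 2.12, was the highest of them. The 4 medians rest on 25, 6, 2 and 5 genes, and no test between the classes was made. In 36 of the 38 windows, a stretch of the bases after the start was found in a transcript of the gene. Of the 40 DNA replication genes, whose transcripts peak earlier in the cell cycle, 31 had windows. Among their 36 windows, 9 held a CHR and 21 (58.3%) a CCAAT box.

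**Figure D2:**
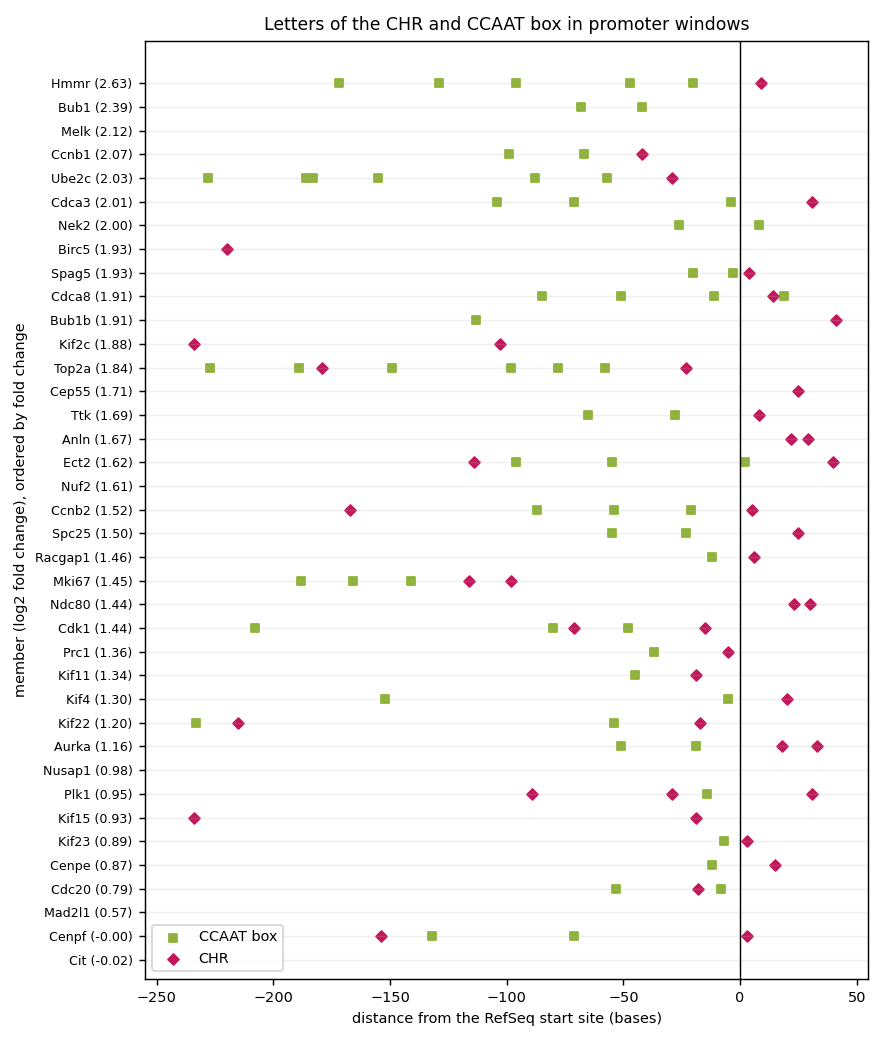
Position of CHR (diamonds) and CCAAT (squares) letters in the promoter windows of 38 genes, in bases from the RefSeq start site, with the genes ordered from the highest log2 fold change at the top to the lowest at the bottom, 1 window a gene. Most diamonds lie within 50 bases of the start and most squares in the 150 bases before it, and the row of Cit is empty.

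All 10 genes of mitotic entry rose, by 1.94 to 4.34-fold, with adjusted p from 8.48e-06 to 0.00722 (edgeR). Cyclin A2 (Ccna2), which drives DNA synthesis and the approach to mitosis, was at 2.30, 1.97 and 1.93 CPM in the control hearts and 7.81, 9.39 and 6.85 CPM in the mutant hearts. Cdk1, the kinase that drives mitosis, was at 1.76, 1.90 and 1.89 CPM in the control hearts and 4.97, 5.06 and 5.03 CPM in the mutant hearts. Cdca3, a trigger of mitotic entry that takes part in the destruction of Wee1, was at 0.791, 0.959 and 0.671 CPM in the control hearts and 3.30, 3.82 and 2.72 CPM in the mutant hearts. The groups were apart for all 3, and Cdk1 varied least within each group. The log2 fold changes were 1.96 ± 0.15 (SE) for Ccna2, 1.44 ± 0.11 for Cdk1 and 2.01 ± 0.19 for Cdca3, with n = 3 hearts a group here and below. Exons of Ccna2 share 12.5% of their bases with Exosc9 on the opposite strand, which the library kit does not separate; Exosc9 itself had a log2 fold change of 0.00.

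The cyclins that activate Cdk1 at mitosis rose as well, Ccnb1 by 4.21-fold and Ccnb2 by 2.87-fold. Ccnb1 shares 23.4% of its 50-base stretches with transcripts of other genes, among them its pseudogene Ccnb1-ps, and its value is uncertain for that reason. Polo-like kinase 1 (Plk1), which acts from entry to cytokinesis, rose 1.94-fold, the smallest increase of the role, and shares 10.4% of such stretches, in part with Plk-ps1. Aurora kinase A (Aurka), which matures the centrosomes, rose 2.24-fold, and Nek2, which separates them, rose 3.99-fold. Melk, a kinase of proliferating cells, rose 4.34-fold, and Foxm1, a transcription factor that activates mitotic genes, rose 2.44-fold.

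All 4 genes of chromosome structure rose, with a median log2 fold change of 1.38. Topoisomerase II alpha (Top2a), which untangles sister chromatids, was at 5.59, 4.79 and 3.40 CPM in the control hearts and 15.9, 18.7 and 14.6 CPM in the mutant hearts. Mki67, the Ki-67 antigen that coats mitotic chromosomes and marks cycling cells, was at 7.55, 7.03 and 4.84 CPM in the control hearts and 19.0, 19.9 and 14.1 CPM in the mutant hearts. The chromosome-binding kinesin Kif22 was at 1.89, 1.72 and 1.55 CPM in the control hearts and 3.32, 4.80 and 3.66 CPM in the mutant hearts. Control 3 was the lowest of the controls for all 3 genes, and no heart crossed between groups. The log2 fold changes were 1.84 ± 0.17, 1.45 ± 0.18 and 1.20 ± 0.17 (SE), in the same order. Kif4, a kinesin of chromosome arms and of the central spindle, rose 2.47-fold; 15.1% of its exon bases overlap Pdzd11, which had a log2 fold change of -0.10, and 14.5% of its 50-base stretches occur in other transcripts, Kif4-ps among them.

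All 8 spindle genes rose, and Hmmr had the largest increase of the 45 genes. Hmmr, which binds microtubules and takes part in spindle assembly, was at 0.816, 0.781 and 0.610 CPM in the control hearts and 4.40, 5.33 and 3.94 CPM in the mutant hearts. Its fold change was 6.19, and its log2 fold change was 2.63 ± 0.18 (SE), with an adjusted p of 4.88e-06 by edgeR. Every mutant heart was at least 4 times as high as any control heart. Spag5 (astrin), which stabilises attachments to kinetochores, was at 0.995, 0.994 and 0.773 CPM in the control hearts and 3.63, 3.86 and 3.06 CPM in the mutant hearts. Kif11, the motor that pushes the spindle poles apart, was at 3.62, 2.73 and 2.62 CPM in the control hearts and 8.41, 7.85 and 6.37 CPM in the mutant hearts. Both sets of hearts were apart for Spag5 and Kif11, whose log2 fold changes were 1.93 ± 0.16 and 1.34 ± 0.15 (SE). Kif2c, a kinesin that takes microtubules apart at the centromere, rose 3.68-fold, and Dlgap5, which stabilises kinetochore fibres, rose 3.38-fold. Tpx2, the activator of Aurora A on the spindle, rose 2.33-fold. The smallest increases of the role were those of Nusap1, a microtubule bundler, at 1.97-fold, and Kif15, a motor that can stand in for Kif11, at 1.91-fold.

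Of the 9 genes of the kinetochore and its checkpoint, 8 rose, and Cenpf did not pass the test. The checkpoint kinase Bub1 was at 0.689, 0.639 and 0.488 CPM in the control hearts and 3.32, 3.48 and 2.74 CPM in the mutant hearts, the second largest increase of the 45 genes. Its partner Bub1b (BubR1), which holds back the anaphase-promoting complex, was at 1.50, 1.51 and 1.16 CPM in the control hearts and 4.78, 5.94 and 4.92 CPM in the mutant hearts. Spc25, a subunit of the Ndc80 complex that grips microtubules, was at 1.45, 1.33 and 1.38 CPM in the control hearts and 4.20, 4.21 and 3.35 CPM in the mutant hearts. The 3 genes did not overlap between groups, and their log2 fold changes were 2.39 ± 0.18, 1.91 ± 0.15 and 1.50 ± 0.14 (SE). The other subunits of that complex in the set rose by a like amount, Ndc80 by 2.71-fold and Nuf2 by 3.06-fold. The checkpoint kinase Ttk (Mps1) rose 3.22-fold. The kinetochore motor Cenpe rose 1.82-fold, with an adjusted p of 0.0146 (edgeR) that became 0.0539 without mutant 2. Mad2l1, the checkpoint protein that binds Cdc20, rose 1.48-fold, the smallest of the 8.

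Cenpf, a large kinetochore protein that also binds microtubules in cells outside mitosis, was at 26.7, 28.6 and 17.3 CPM in the control hearts and 30.1, 19.6 and 22.8 CPM in the mutant hearts. Control 3 was the lowest of all 6 hearts, mutant 1 the highest, and the groups overlapped throughout. The log2 fold change was -0.00 ± 0.20 (SE), with an adjusted p of 0.993 by edgeR. Per gene length, Cenpf was the highest of the 45 genes in the control hearts, at 1.41 ± 0.355 RPKM (mean ± SD, n = 3). RPKM are reads scaled to gene length and library total. In the mutant hearts Cenpf was the seventh, at 1.71 ± 0.356 RPKM. The gene length used was close to that of all annotated exons together, so ranks between genes depend on the annotation.

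Both genes of the anaphase-promoting complex pathway rose. Ube2c, the enzyme that supplies the complex with ubiquitin, was at 0.612, 0.905 and 0.569 CPM in the control hearts and 2.57, 3.76 and 2.32 CPM in the mutant hearts. Cdc20, the subunit that brings it its targets at anaphase, was at 1.71, 1.85 and 1.77 CPM in the control hearts and 2.84, 3.29 and 3.11 CPM in the mutant hearts. The groups did not overlap for either gene, while the sizes stood apart, at 4.07-fold for Ube2c and 1.73-fold for Cdc20. Ube2c shares 22.8% of its exon bases with Tnnc2 on the opposite strand, for which 1 count was found in the control hearts and 4 in the mutant hearts in all. Of the 50-base stretches of Cdc20, 10.6% occur in other transcripts.

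All 4 members of the passenger complex, which corrects faulty attachments and then moves to the central spindle for cytokinesis, rose. Its kinase Aurkb (Aurora B) was at 0.740, 0.462 and 0.529 CPM in the control hearts and 1.82, 2.22 and 1.84 CPM in the mutant hearts. Birc5 (survivin), which brings the complex to the centromere, was at 0.791, 0.888 and 0.976 CPM in the control hearts and 3.20, 3.94 and 3.07 CPM in the mutant hearts. Cdca8 (borealin), a targeting subunit, was at 1.10, 0.639 and 0.549 CPM in the control hearts and 2.80, 3.19 and 2.41 CPM in the mutant hearts. For these 3 subunits the lowest mutant heart was well above the highest control heart, and the increases were 3.45, 3.82 and 3.75-fold. The scaffold Incenp was at 4.69, 5.31 and 4.66 CPM in the control hearts and 5.80, 6.61 and 6.70 CPM in the mutant hearts. These groups were close but apart, and Incenp had the smallest increase of the 43 called genes, at 1.30-fold, a log2 fold change of 0.38 ± 0.11 (SE). Its adjusted p of 0.0197 by edgeR became 0.0542 without control 1, 0.0557 without control 3, 0.0767 without mutant 2 and 0.0734 without mutant 3. Per length, Incenp was the second highest of the 45 genes in the control hearts, at 1.37 ± 0.105 RPKM (SD, n = 3), and the highest in the mutant hearts, at 2.17 ± 0.207 RPKM.

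Of the 8 cytokinesis genes, 7 rose, by 1.86 to 3.28-fold, and Cit did not pass the test. The genes of the central spindle all rose. Kif23, the motor of the centralspindlin complex, was at 2.32, 2.04 and 1.83 CPM in the control hearts and 3.45, 4.66 and 3.35 CPM in the mutant hearts. Racgap1, the partner of Kif23 in that complex, was at 2.35, 2.84 and 2.20 CPM in the control hearts and 6.45, 7.83 and 6.15 CPM in the mutant hearts. Prc1, which bundles the microtubules between the separating chromosomes, was at 2.86, 2.91 and 2.62 CPM in the control hearts and 7.08, 8.40 and 6.13 CPM in the mutant hearts. The groups were apart for all 3, and the increase of Kif23, 1.86-fold, was below those of Racgap1, 2.75-fold, and Prc1, 2.57-fold. The motor Kif20a, which carries the passenger complex to the central spindle, was at 2.12, 1.88 and 1.75 CPM in the control hearts and 3.71, 5.14 and 3.46 CPM in the mutant hearts, 2.15-fold higher. Kif20a shares 29.3% of its exon bases with Cdc23 on the opposite strand, which stood at 41.3 CPM in control and 48.8 CPM in mutant hearts and was itself called higher, with a log2 fold change of 0.24. The kit does not mark the strand of reads from these neighbours, and how the counting treated reads in the shared bases is not given. The part of Cdc23 in the value of Kif20a was not tested. Prc1 shares 11.1% with Rccd1, which had a log2 fold change of -0.21 and was not called.

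Of the genes that build and close the contractile ring, 3 rose and Cit did not pass the test. Ect2, which starts the furrow, was at 1.50, 0.905 and 0.752 CPM in the control hearts and 3.45, 3.66 and 2.47 CPM in the mutant hearts. Anillin (Anln), the scaffold of the ring, was at 2.50, 2.86 and 2.32 CPM in the control hearts and 8.33, 9.23 and 7.01 CPM in the mutant hearts. Cep55, which gathers the machinery that cuts the last bridge between daughter cells, was at 0.867, 0.373 and 0.508 CPM in the control hearts and 1.56, 2.36 and 1.64 CPM in the mutant hearts. Control 1 was the highest control for Ect2 and for Cep55 and still lay below every mutant heart. The log2 fold changes were 1.62 ± 0.25, 1.67 ± 0.14 and 1.71 ± 0.30 (SE), and Cep55 had the widest error of the role. Citron kinase (Cit), which holds the ring and the bridge together, was at 4.06, 4.12 and 4.58 CPM in the control hearts and 3.41, 5.10 and 4.05 CPM in the mutant hearts. Mutant hearts were both the lowest and the highest of the 6. The log2 fold change of Cit was -0.02 ± 0.15 (SE), with an adjusted p of 0.925 by edgeR. The deposited table has 1 value for the whole gene, which also encodes a form without the kinase domain known from neurons, and the forms cannot be told apart in it.

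**Figure D3:**
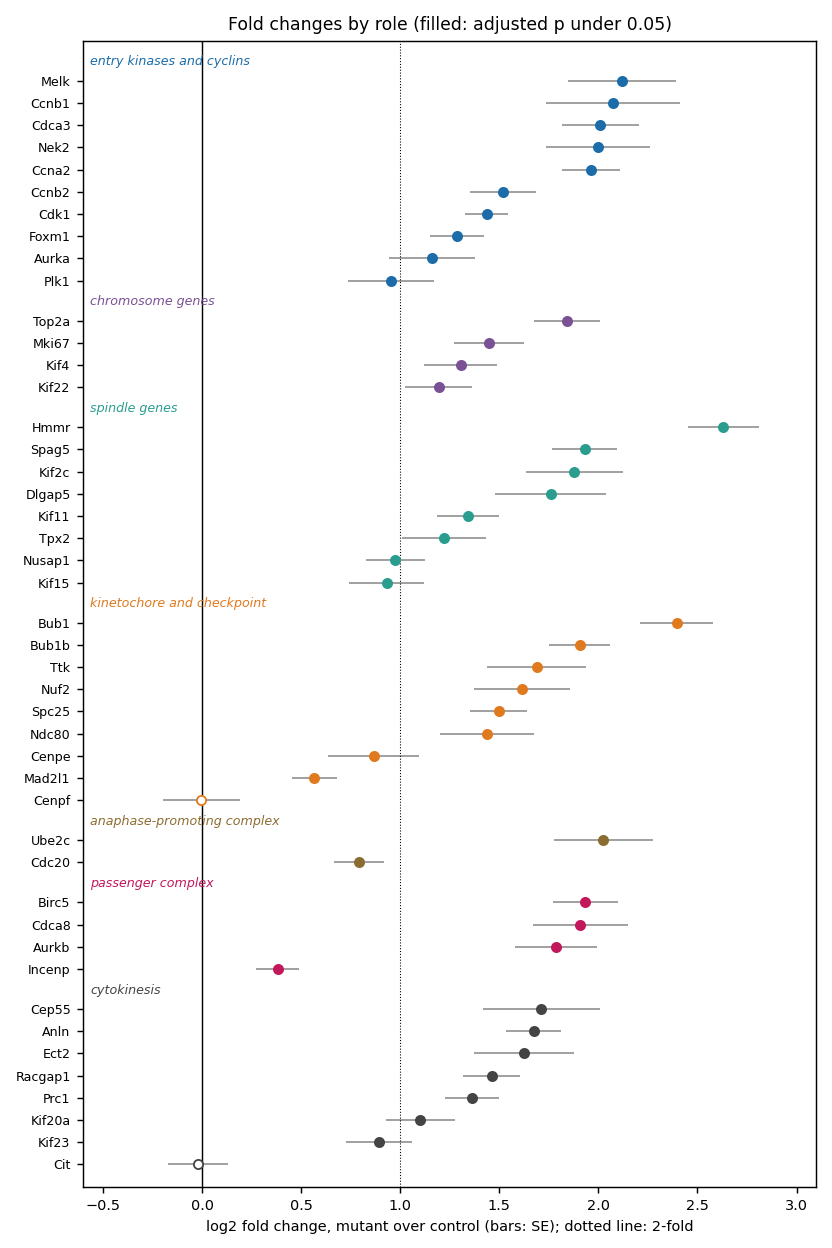
Log2 fold change, mutant over control, of the 45 genes with its SE (bars), by role; filled points passed an adjusted p under 0.05, and the dotted line marks 2-fold. The points run from -0.02 to 2.63, every role but cytokinesis and the kinetochore has filled points alone, and the 2 open points are Cenpf and Cit, both near 0.

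Set against each other as groups, the cytokinesis genes and the genes of early mitosis were both higher in the mutant hearts, with medians close to each other. The median log2 fold change was 1.41 over the 8 cytokinesis genes. Over the 33 genes of the 5 earlier roles it was 1.50, a difference of -0.09. These 5 roles include the anaphase-promoting complex pathway and Plk1, which also act later than early mitosis. With the passenger complex and Kif4 counted as cytokinesis genes the difference was -0.05, and on the log2 scale of RPKM, with 0.1 or 1 added, it turned positive, at 0.10 and 0.01. Without Cit and Cenpf, left out after their values were seen, the medians were 1.46 and 1.51. No test of the difference between the sets was made.

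Means of log2 CPM over both sets, taken heart by heart, are another measure than the medians of fold changes, and they gave a wider difference. From control to mutant hearts the mean rose by 1.47 for early mitosis and by 1.20 for cytokinesis. The difference of these rises was -0.27, against -0.09 for the medians, and it was -0.14 without Cit and Cenpf. The mean log2 CPM of the early mitosis genes was 0.45, 0.43 and 0.16 in the control hearts and 1.81, 2.02 and 1.63 in the mutant hearts. That of the cytokinesis genes was 1.13, 0.91 and 0.82 in the control hearts and 2.07, 2.42 and 1.97 in the mutant hearts. Both sets were higher in each mutant heart than in any control heart. Cytokinesis minus early mitosis came to 0.67, 0.48 and 0.66 in the control hearts and 0.26, 0.40 and 0.34 in the mutant hearts, so the gap was narrower in each mutant heart. Without Cit and Cenpf it came to 0.68, 0.46 and 0.58 in the control hearts and to 0.40, 0.48 and 0.42 in the mutant hearts, where the groups overlapped. The separation of the groups in this gap therefore held with all members and not without these 2 genes.

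**Figure D4:**
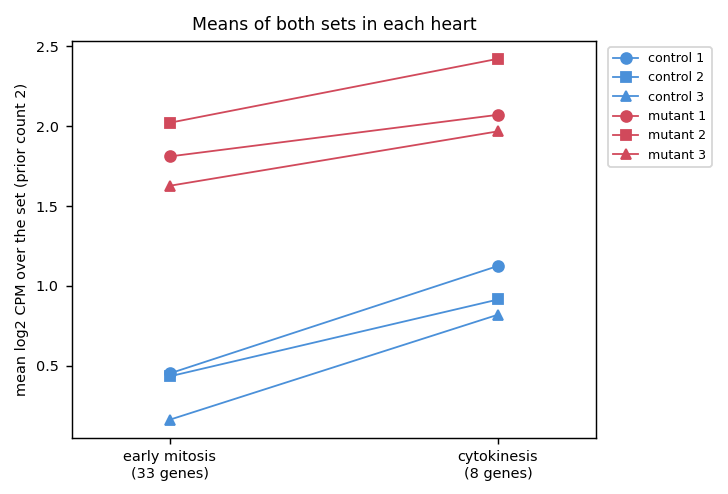
Mean log2 CPM (prior count 2) of the 33 early mitosis genes and of the 8 cytokinesis genes in each heart, with the values of 1 heart joined by a line. Both means are higher in all 3 mutant hearts than in all 3 control hearts, and the lines of the mutant hearts rise less from left to right, by 0.26 to 0.40 against 0.48 to 0.67.

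The hearts kept much of their order from gene to gene. Mutant 2 was the highest mutant heart for 38 of the 45 genes, and mutant 3 was the lowest for 33. Among the controls, control 3 was the lowest for 31 genes and control 1 the highest for 25. Of the genes not called higher, Cit had mutant 2 as its highest mutant heart and Cenpf had it as its lowest. Values of different genes in 1 heart come from the same library and are not independent of each other.

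Per length, the 45 genes ran from 0.0529 RPKM (Ccnb1) to 1.41 RPKM (Cenpf) in the control hearts. After Cenpf and Incenp, Cdc20 at 0.856 ± 0.0343 RPKM and Ccnb2 at 0.593 ± 0.0709 RPKM were the highest there (mean ± SD, n = 3). In the mutant hearts the range was from 0.239 RPKM (Kif15) to 2.17 RPKM (Incenp), and Ccna2 at 2.15 ± 0.338, Ccnb2 at 2.06 ± 0.286, Top2a at 1.99 ± 0.252 and Mki67 at 1.92 ± 0.319 RPKM stood next to Incenp. The means of Ccna2, Ccnb2, Top2a and Mki67 lay within 1 SD of their neighbours in that order. The deposited RPKM hold no correction for library composition, so their ratios run above the fold changes given here.

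**Figure D5:**
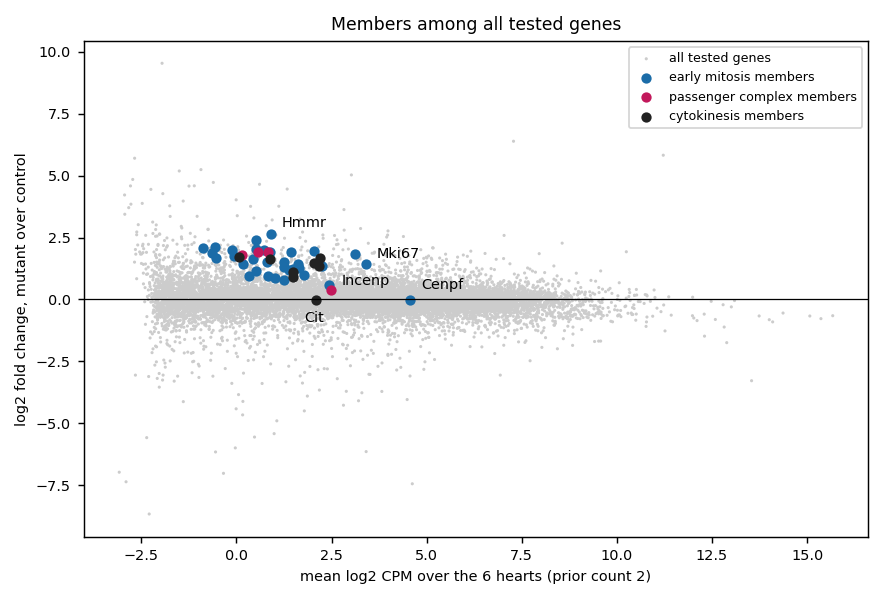
Log2 fold change, mutant over control, against mean log2 CPM over the 6 hearts for all 14877 genes tested (grey) and for the early mitosis, passenger complex and cytokinesis genes (coloured). The coloured points lie at low levels and between log2 fold changes of 0.38 and 2.63 for the 43 called genes, against a median of -0.00 over all genes.

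Other genes of the same processes were followed in lists chosen for their function, with earlier results of these data known. Over all genes tested, 18.1% were called higher and 19.5% lower. Of 54 other mitosis genes, 35 rose (64.8%), 2 fell (3.7%) and 17 were not called, with a median log2 fold change of 0.93. The 4 with the smallest p were Ckap2l, a spindle protein, at 3.39-fold, the checkpoint subunit Kntc1 at 4.93-fold, the mitotic kinase Pbk at 3.57-fold and Cdca5 (sororin), which protects sister chromatid cohesion, at 4.67-fold. The 2 that fell were Pttg1 (securin), the inhibitor of separase, at 44.1 CPM in control and 31.7 CPM in mutant hearts, and the nuclear import factor Kpna2, at 2.08 and 1.47 CPM. Of 7 other cytokinesis genes known mainly from dividing cells, 6 rose (85.7%) and Depdc1b was not called, with a median of 1.13. Those with the smallest p were Iqgap3 at 5.10-fold, Arhgap11a at 2.07-fold, the actin nucleator Diaph3 at 2.96-fold and the motor Kif14 at 2.19-fold.

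Cytokinesis also uses proteins with functions outside division, and 25 such genes had a median log2 fold change of 0.08. Of these, 6 rose (24%), 2 fell (8%) and 17 were not called, where 18.1% of all genes tested were called higher and 19.5% lower, so the share that rose was near that of all genes. Sept6, a septin, rose 2.80-fold, from 12.8 to 35.8 CPM, and Myh10, a non-muscle myosin heavy chain, rose 1.62-fold. Iqgap1 and Pdcd6ip rose 1.20 and 1.15-fold, and Sept11 and Ywhae also passed the test. The membrane-cutting ATPase Vps4a and its partner Chmp2a fell by 0.25 each on the log2 scale. An increase of at least 2-fold was called for 6 of the 7 genes known mainly from dividing cells and, among these 25, for Sept6. Of all genes tested, 4.48% were called at that size.

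Of the 40 DNA replication genes, 25 rose, none fell (edgeR; 1 was lower at an unadjusted p under 0.05) and 15 were not called, with a median log2 fold change of 0.45. Rrm2, a subunit of the enzyme that makes deoxynucleotides, rose 4.02-fold, and Uhrf1, which maintains DNA methylation at replication, rose 2.99-fold. Thymidine kinase (Tk1) rose 2.49-fold and the licensing factor Cdt1 rose 2.45-fold. Among 13 measured of 14 listed genes of the complexes and inhibitors that regulate mitotic genes, 4 rose (30.8%), 1 fell (7.69%) and 8 were not called, beside 18.1% and 19.5% of all genes tested; nothing particular to the list is read from these counts. The pocket protein Rbl1 (p107) rose 1.61-fold, the inhibitor Cdkn1b (p27) 1.29-fold, the chromatin protein Rbbp4 1.15-fold and Trp53 1.19-fold. Cdkn1c (p57) fell, from 17.5 to 14.8 CPM.

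The libraries held 43314706 to 62095277 counts. Thra, the receptor's own gene, was at 66.8, 81.6 and 81.7 CPM in the control hearts and 125, 142 and 143 CPM in the mutant hearts. Its log2 fold change was 0.83 ± 0.09 (SE), but the gene counts do not separate the altered transcript from the normal one. Genes of the mitochondrial genome took 22.3 to 24.8% of counts in the control libraries and 16.7 to 18.8% in the mutant libraries. Log2 CPM over genes correlated at 0.9919 to 0.9953 within groups and at 0.9703 to 0.9744 across them. By these correlations, no library stood apart from its group.

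Markers of heart cell types were summed in the same hearts, and the medians of their lists ran from -0.65 (macrophages) to 0.22 (fibroblasts) on the log2 scale. The calls counted below stand beside 18.1% of all genes tested called higher and 19.5% called lower. The 8 heart muscle markers summed to 39569 to 44594 CPM in the control hearts and 34064 to 35372 CPM in the mutant hearts, with 4 called lower and none higher. The 8 endothelial markers summed to 1487 to 1622 and 1280 to 1376 CPM, with 5 lower, and the 8 macrophage markers to 103 to 113 and 68.2 to 70.3 CPM, with 6 lower. The fibroblast markers summed to 2635 to 2977 CPM in the control hearts and 3018 to 3379 CPM in the mutant hearts, with 3 of 8 higher. For smooth muscle cells and pericytes, 3 of 8 markers were lower and 1 higher, and the sums were 2406 to 2631 and 2208 to 2308 CPM. Sums for the red cell precursor list (349 to 899 and 295 to 699 CPM), the epicardium (30.2 to 36.0 and 33.9 to 36.9 CPM) and Schwann cells (14.4 to 16.1 and 13.8 to 18.7 CPM) overlapped between groups. Of their tested markers none of 7, 1 of 4 and none of 4 were called higher, and none, 1 and 1 were called lower, by edgeR. The lowest red cell precursor sum of each group was that of control 3, at 349 CPM, and of mutant 3, at 295 CPM. Among the 4 tested of 8 lymphocyte markers 1 was lower, with sums of 7.83 to 8.26 and 4.75 to 7.14 CPM. Cd8a, Nkg7 and the epicardial markers Upk1b and Lrrn4 were at 0 in some libraries. The part of cell composition and of the mitochondrial share in the rise of the mitosis genes was not tested.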

How the data were processed

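RNA from 6 whole hearts was sequenced by the submitters; hearts were frozen, RNA was taken with Trizol, and libraries were made with the TruSeq RNA kit v2, which does not mark strand, per the labels' protocols. Groups and replicate numbers came from the sample titles, and each sample is a separate pup. The test therefore set the difference between groups against the spread among these hearts. The spread of each gene was moderated by that of other genes, and litter was not a term. Deposited counts are unscaled integers for each Ensembl gene; cutadapt 1.9, STAR 2.5.2b, featureCounts 1.5.1 and mm10 were used, per the submitters' processing notes. The sources used here do not give the strand setting, the annotation or the treatment of multi-mapping reads. The RPKM values deposited by the authors equal counts over gene length and library total, with no scaling for composition. Genes listed have at least 2 counts over the 6 libraries. Symbols, coordinates and exon overlaps came from GENCODE M21 (20081 of 20121 identifiers matched), and promoter windows from RefSeq (GRCm38.p6).

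The test was that of edgeR 4.0.16 (R 4.3.3; filterByExpr, TMM, quasi-likelihood F test, group as the only term), which tested 14877 genes and left out 5244. Benjamini-Hochberg adjustment ran over all genes tested, and calls needed an adjusted p under 0.05. The SE of a log2 fold change is its size over the square root of F, an approximation. Log2 CPM used a prior count of 2. DESeq2 1.42.0, limma 3.58.1 on log2 RPKM, other scalings and filters, a replicate block and leaving out each heart were the alternatives. Scripts were tested on simulated counts. The members and all lists were chosen with earlier results of these data known. Values by heart are given for every cytokinesis and passenger complex gene and, in each other role, for the 3 genes with the smallest p and any gene not called higher; other genes come from fixed lists, as the 4 called genes with the smallest p and those called against the list's direction. Further genes named for being exceptions, and the other members of short counts, were chosen after their values were seen.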

Additional observations from a re-analysis of the deposited data

How the results depend on the processing

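Of the 45 genes, 43 were called higher under DESeq2, other size factors, no filter, no composition scaling and all 3 RPKM fits, and 42 with at least 1 CPM required in 3 libraries, where Ccnb1 was not tested. None was called lower under any alternative, and Cenpf and Cit were called under none. Without 1 heart, 41 to 43 were called higher and 0 to 0 lower; the calls lost were those of Incenp (without control 1, control 3, mutant 2 or mutant 3) and Cenpe (without mutant 2). The count of all genes called higher was then 2039 to 2661 and lower 2234 to 2856, the median log2 fold change 1.43 to 1.59 over all members and over early mitosis and 1.29 to 1.49 over cytokinesis, and the difference of these medians -0.16 to -0.02. Over single genes, 669 of 674 alternative values kept their side of the threshold and 5 lost the call; Cenpf and Cit, near 0 and called in none, changed sign under some of them, and no called gene did.

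Scaling moved the level of all genes. Without composition scaling the median of all genes shifted by 0.28 (log2), 7479 genes were called higher and 1207 lower (86.1% of calls higher, against 48.1% with TMM), and the medians were 1.78 over all members, 1.78 over early mitosis and 1.70 over cytokinesis. On log2(RPKM + 0.1) the shift was 0.26, with 7091 higher and 1155 lower, an early mitosis median of 1.31 and a difference of 0.10. On log2(RPKM + 1) the shift was 0.17, with 7094 higher and 1160 lower, and medians of 0.55 over all members, 0.55 over early mitosis and 0.56 over cytokinesis, which differ by 0.0071. With 0.1 added and no filter, 6947 were higher and 1188 lower, the early mitosis median was 1.31 and the difference 0.10. The shares of calls that were higher were 86.0%, 86.0% and 85.4% on these 3 scales. The larger pseudocount shrinks the folds of low genes by its construction. Without composition scaling Cenpf and Cit stood at 0.28 and 0.26 (adjusted p 0.233 and 0.172, edgeR), which is the shift of all genes.

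Whether the replicate numbers of the titles pair the hearts cannot be settled with 3 hearts a group. Over all genes, deviations of same-numbered hearts from their group means correlated at 0.15, -0.05 and 0.10. Over the 45 genes they correlated at 0.14, 0.0016 and 0.37. Hearts 1 and 3 of each group correlated best with their own number, and hearts 2 did not. With the replicate number as a block, 3090 genes were called higher and 3229 lower, against 2688 and 2898 without it. Of the members, 43 were then called higher and 0 lower. Low counts limit the precision most for Ccnb1, with 8 counts in 1 control library.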
